A study of Mus musculus with 8 samples.

Results

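Fatty acids enter a cell with the help of membrane proteins, are carried through the cytosol by binding proteins and are joined to coenzyme A before they can be oxidised or built into lipids. H3K27ac, the acetylated lysine found on histones of active promoters and enhancers, was examined at 10 mouse genes of these steps. They were Cd36, Slc27a1, Slc27a2 and Slc27a4 for uptake, Fabp5 for cytosolic binding, and Acsl1, Acsl3, Acsl4, Acsl5 and Acsl6 for activation. The genes were chosen by function, and every interval of the deposited peak lists that touched a gene body or the 20 kb on either side of it was taken. This gave 47 of 81522 DMSO intervals and 131 of 253423 EnPGC-1 intervals, in 10 of 21631 protein-coding gene regions on chromosomes 1 to 19 and X.

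The cells were primary CD8+ T cells from spleen and lymph node of C57BL/6 mice, for which the labels give neither age nor sex. All were stimulated with antibodies to CD3 and CD28. A set was kept for 48 h with EnPGC-1, which the labels class among PIPs, and the other with DMSO, its vehicle. The 8 samples were 2 H3K27ac samples per treatment, 2 IgG samples from the vehicle group and an input for each treatment. Only 2 peak lists, 1 for each treatment, were used, in mm10 coordinates. The spread between replicates therefore could not be measured and no difference between treatments could be tested; read depths are unknown here. The EnPGC-1 list as a whole exceeded the DMSO list 4.00 times in covered bases (165 against 41.3 Mb), and the ratios for genes below are to be read beside that excess. Of the CD8 T cell markers, 7 of 8 matched a gene (Cd3e, Cd3d, Cd3g, Cd8a, Cd8b1, Lck and Cd2), and all 7 regions held intervals in both lists. Of all protein-coding gene regions, 81.1% held a DMSO interval and 94.1% an EnPGC-1 interval. Marker regions of other cell types held intervals too: a DMSO interval was present in 4 of 5 B cell, 4 of 5 myeloid, 3 of 3 CD4 and regulatory T cell, 1 of 2 NK, 3 of 3 adipocyte and 2 of 3 liver marker regions, and each of these regions held an EnPGC-1 interval. Ms4a1 (B cell), Itgam (myeloid), Ncr1 (NK) and Alb (liver) had 0 DMSO intervals, whereas Pax5 (B cell), Csf1r (myeloid) and Apoa1 (liver) were covered to 10.3%, 10.2% and 10.2% in that list. Over all gene regions the median covered shares in the DMSO and EnPGC-1 lists were 1.99% and 8.37%. For the CD8 markers they were lower, 1.803% and 7.03%. They were higher for the B cell (4.43% and 27.9%), CD4 and regulatory T cell (3.71% and 20.3%), adipocyte (3.03% and 15.3%) and myeloid markers (2.04% and 8.73%), and lower for the liver (1.28% and 5.73%) and NK markers (0.817% and 3.19%). Coverage at these markers therefore does not by itself identify the cells as CD8+ T cells. The part of other cells in the results was not tested, and in bulk chromatin a mark in more cells and a stronger mark per cell cannot be told apart.

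CD36 is a scavenger receptor that binds long-chain fatty acids at the cell surface. The SLC27 family, also called fatty acid transport proteins, combines transport with acyl-CoA synthetase activity, and the ACSL enzymes activate long-chain fatty acids. FABP5 is a cytosolic carrier known from T cells, among them tissue-resident memory cells. Activated CD8+ T cells lean on glycolysis and lipid synthesis, whereas memory cells are known for their use of fatty acid oxidation, which PGC-1 coactivators promote.

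Sequences before 6 annotated starts show how these promoters differ. Among these 6, the 4 inside or next to an EnPGC-1 interval had at least the median CpG count. Other starts near such an interval, given below the sequences, had fewer. The 2 without an interval nearby include a CpG-rich and a CpG-poor sequence. The sequences are from RefSeq (GRCm38.p6, the coordinates of mm10), 250 bases up to the base before the start, 5′ to 3′ on the gene's strand. Of the 10 genes, 9 matched the promoter table, with 14 starts; Fabp5 had no entry. Capitals mark CpG dinucleotides in the first 5 lines, and the median over all 21045 promoters of protein-coding genes in the table was 10.
Acsl4, chrX:142390536-142390785, minus strand, inside an EnPGC-1 interval over all 250 bases: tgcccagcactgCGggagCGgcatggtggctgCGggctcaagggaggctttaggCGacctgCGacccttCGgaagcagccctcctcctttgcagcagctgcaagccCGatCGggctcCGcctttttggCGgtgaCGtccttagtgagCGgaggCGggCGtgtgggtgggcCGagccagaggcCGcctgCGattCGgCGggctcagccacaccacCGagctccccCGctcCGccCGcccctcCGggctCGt
Acsl6 second start, chr11:54303954-54304203, plus strand, inside an EnPGC-1 interval over all 250 bases: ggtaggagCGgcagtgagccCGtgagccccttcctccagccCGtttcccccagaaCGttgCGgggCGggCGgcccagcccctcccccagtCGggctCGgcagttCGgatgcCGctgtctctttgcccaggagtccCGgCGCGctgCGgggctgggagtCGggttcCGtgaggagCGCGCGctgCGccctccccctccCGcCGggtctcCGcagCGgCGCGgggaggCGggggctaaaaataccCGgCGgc
Acsl3, chr1:78657575-78657824, plus strand, with an EnPGC-1 interval that begins 14 bases after the start base: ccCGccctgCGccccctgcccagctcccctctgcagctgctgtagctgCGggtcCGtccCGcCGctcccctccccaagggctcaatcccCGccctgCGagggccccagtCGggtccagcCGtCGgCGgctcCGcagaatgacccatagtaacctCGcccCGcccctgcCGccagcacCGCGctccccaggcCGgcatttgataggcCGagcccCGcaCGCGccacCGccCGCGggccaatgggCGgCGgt
Acsl1 first start, chr8:46470787-46471036, plus strand, with no interval of either list within 1 kb of the start: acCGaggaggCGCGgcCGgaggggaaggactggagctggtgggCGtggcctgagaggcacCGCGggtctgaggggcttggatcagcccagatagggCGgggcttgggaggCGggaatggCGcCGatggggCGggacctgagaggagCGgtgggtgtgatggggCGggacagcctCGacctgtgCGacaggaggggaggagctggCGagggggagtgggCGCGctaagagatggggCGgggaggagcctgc
Cd36, chr5:17835897-17836146, minus strand, with no interval of either list within 1 kb of the start: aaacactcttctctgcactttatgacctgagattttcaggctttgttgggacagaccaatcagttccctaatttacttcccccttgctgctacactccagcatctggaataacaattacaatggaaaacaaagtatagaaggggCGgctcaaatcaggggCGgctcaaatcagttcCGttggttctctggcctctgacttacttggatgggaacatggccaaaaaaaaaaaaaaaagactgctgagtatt
Slc27a1, upstream of the third start, chr8:71570344-71570593, plus strand, inside an EnPGC-1 interval over all 250 bases, with capitals marking the E box CACGTG: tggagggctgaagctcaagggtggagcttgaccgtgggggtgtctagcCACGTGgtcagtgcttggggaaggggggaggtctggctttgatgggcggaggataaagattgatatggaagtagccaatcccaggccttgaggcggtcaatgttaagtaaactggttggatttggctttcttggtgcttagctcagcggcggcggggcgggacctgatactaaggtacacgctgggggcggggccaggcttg
The CpG counts were 25 for Acsl4, 30 for the second Acsl6 start, 28 for Acsl3 and 20 for the first Acsl1 start. They were 3 for Cd36, at a start inside the annotated gene body, and 10 at the third Slc27a1 start. Acsl1 thus had a CpG-rich promoter without a listed interval, and Slc27a1 a listed start at the median CpG count. Among the starts whose sequence is not shown, the third of Acsl6 had 1 CpG, and 135 of its 250 bases lay inside an EnPGC-1 interval. Further starts near an EnPGC-1 interval were also below the median count. They were the first of Acsl6 (3 CpG, interval 95 bases away), the first of Slc27a1 (8, 59 bases) and Slc27a4 (8, 882 bases). The second Slc27a1 start had 12, with an interval 358 bases away. A link between CpG count and intervals was not tested.

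Motifs of factors known from this metabolic programme were searched in the same windows. The ERR response element TCAAGGTCA was found, on either strand, before 1 of the 14 starts and before 0.323% of all promoters. The match lay 167 bases before the first Acsl6 start, on the opposite strand, in the sequence below with the match in capitals.
Acsl6 first start, chr11:54303574-54303823, plus strand, with no base inside an interval of either list: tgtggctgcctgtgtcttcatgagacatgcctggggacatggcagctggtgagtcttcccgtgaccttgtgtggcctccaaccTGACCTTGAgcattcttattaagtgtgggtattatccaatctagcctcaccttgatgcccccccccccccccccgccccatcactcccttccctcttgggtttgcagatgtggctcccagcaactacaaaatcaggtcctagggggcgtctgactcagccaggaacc
The E box CACGTG, read the same on both strands, stood 202 bases before the third start of Slc27a1 and was present in 6.70% of all promoters. The PPAR/RXR repeat (AGGTCA, any base, AGGTCA), the NRF1 motif (GCGCA followed by TGCGC) and the TATA box TATAAA were found before 0 of the 14 starts on either strand, and before 0.0428%, 1.08% and 11.7% of all promoters. The ERR and E box matches lay at different genes, Acsl6 and Slc27a1, so no overlap between motifs could occur in these windows.

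Over the 10 gene regions together, EnPGC-1 intervals covered 89808 of 873449 bases (10.3%) and DMSO intervals 20402 (2.34%). The ratio was 4.40 for covered bases and 2.79 for intervals, beside 4.00 and 3.11 for the whole lists. The median ratio of covered bases over gene regions with a DMSO interval was 3.71. In all 10 regions EnPGC-1 intervals covered more bases than DMSO intervals did, as in 93.0% of all gene regions, so this direction does not set these genes apart. At least 4 times as many bases were covered in 5 of the 9 regions that held a DMSO interval (Acsl1, Acsl5, Acsl6, Slc27a2 and Slc27a4), beside 43.9% of all such regions. A DMSO interval was present in 9 of 10 regions and an EnPGC-1 interval in 10 of 10, beside 81.1% and 94.1% of all regions. The exception was Acsl4, which was in the EnPGC-1 list alone, as were 13.4% of all regions. The median difference in covered share, EnPGC-1 minus DMSO, was 6.62 percentage points over the 10 regions and 6.23 over all genes. Then only as many EnPGC-1 intervals were kept as the DMSO list holds, those with the highest scores, widest first among equal scores. Under this setting the ratio over the 10 regions was 2.12 beside 1.65 for the whole lists, and 0 regions reached 4 times. Slc27a4 then had the highest single ratio, 3.48, whereas Acsl6 stood at 1.42 and Slc27a2 at 1.02. Acsl4 had no interval left, and at Acsl3 the DMSO list alone did, over 1248 bases.

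**Figure D1:**
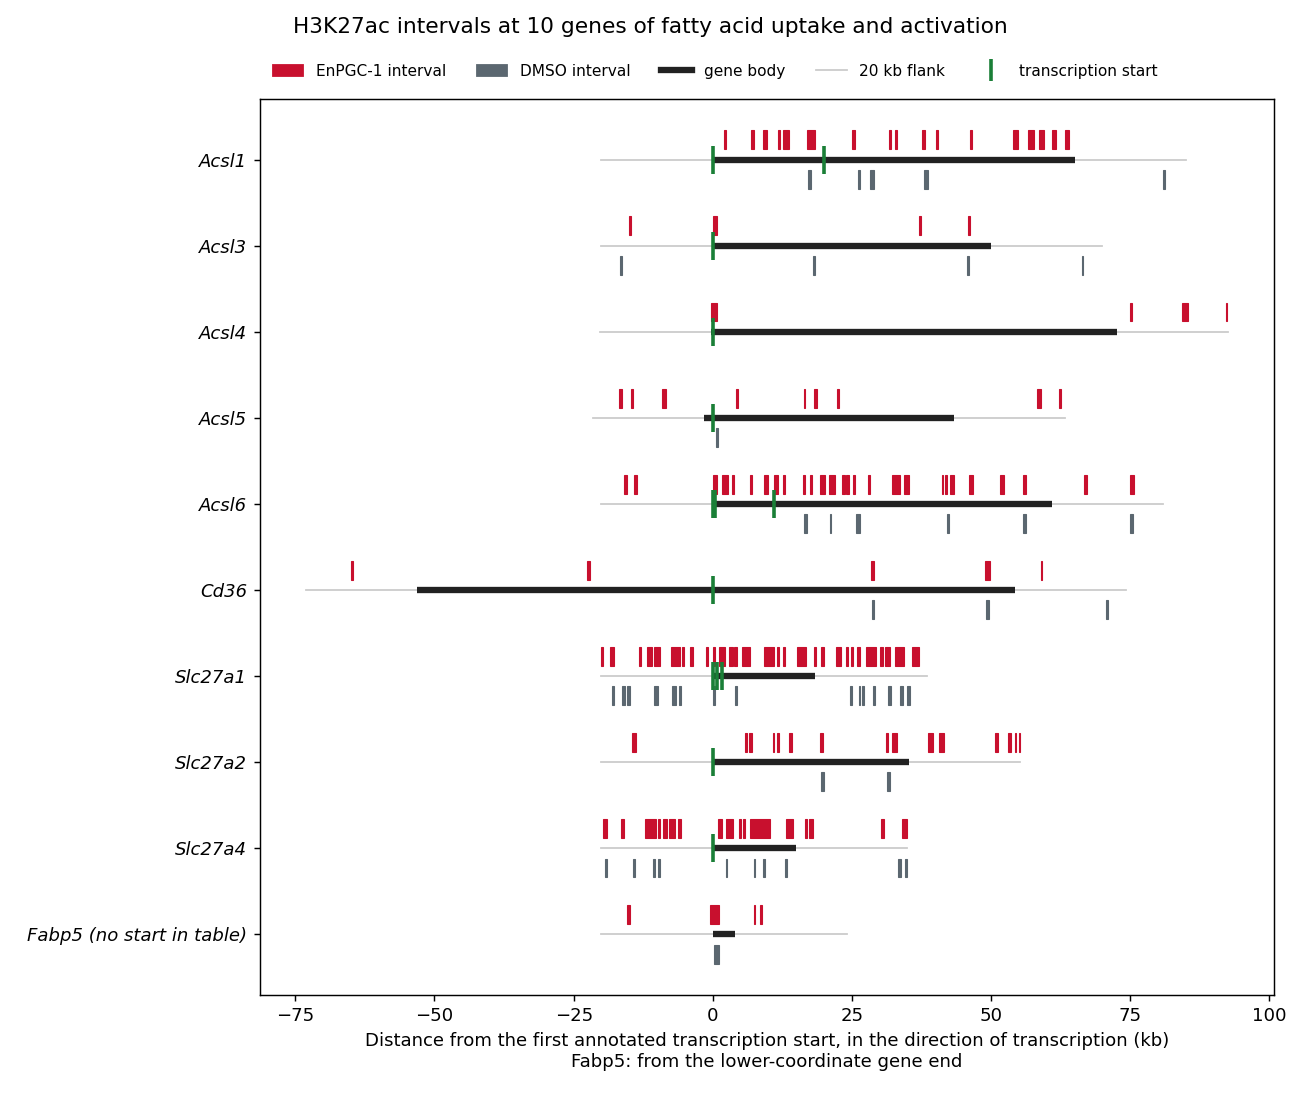
Intervals of the EnPGC-1 list (red, above each line) and the DMSO list (grey, below it) at the 10 genes, drawn to scale against distance in kb from the first annotated start in the direction of transcription (for Fabp5, from the lower-coordinate gene end). Black bars are gene bodies, thin lines the 20 kb flanks and green ticks starts; Slc27a1 and Slc27a4 are crowded in both lists, while Acsl4 has 4 EnPGC-1 intervals and 0 DMSO intervals.

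In the EnPGC-1 list the uptake genes held both the most and the least covered regions, Slc27a1 and Cd36; in the DMSO list Slc27a1 was again the most covered, and the least covered were the synthetase genes Acsl4 and Acsl5. Slc27a1 encodes FATP1, a transporter known from muscle and fat, and lies at chr8:71568728-71587307. Its region had 15 DMSO intervals over 6547 bases (11.18% of the region) and 29 EnPGC-1 intervals over 23418 bases (39.98%). The ratio of 3.58 was below that of the whole lists. Most of the DMSO bases lay beside the gene and not in it. The gene body had 774 bases covered by DMSO intervals (4.17%) and 8446 by EnPGC-1 intervals (45.5%), a ratio of 10.9, whereas the flanks had 5773 and 14972, a ratio of 2.59. The flanks are shared with neighbours, and 10 of the 15 DMSO and 15 of the 29 EnPGC-1 intervals touched another protein-coding gene, Nxnl1 and Niban3 among them.

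Slc27a1 was the 1 gene of the 9 with an interval of both lists within 1 kb of a start. The DMSO interval chr8:71568974-71569268 lay 103 bases after the first start, and the EnPGC-1 interval chr8:71568930-71569239 lay 59 bases after it. The third start, whose promoter is printed above, lay inside chr8:71570029-71571116. That interval was in the EnPGC-1 list alone and had a score of 7.68, the highest of any in the 10 regions, shared with 2 intervals at Acsl5. The deposited score is read here as −log10 q, which the labels do not state, and 1.804% of the EnPGC-1 list scored higher.

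Slc27a4 encodes FATP4, a transporter of very long-chain as well as long-chain fatty acids, at chr2:29802634-29817522. Its region had 10 DMSO intervals over 3593 bases (6.55%) and 17 EnPGC-1 intervals over 16283 bases (29.7%), a ratio of 4.53. The body was covered to 9.58% and 50.9%, the latter the highest of the 10 bodies. A single interval accounted for much of it: chr2:29809334-29812968 was 3635 bp wide with 5 summits, the widest of all 178 intervals. It took in 2 narrow DMSO intervals, chr2:29809988-29810286 and chr2:29811675-29812101. The interval nearest the start, chr2:29803516-29804206, lay 882 bases after it, scored 7.05 and was in the EnPGC-1 list alone. As at Slc27a1, neighbours contributed: 6 of 10 DMSO and 9 of 17 EnPGC-1 intervals touched another protein-coding gene, and the 2016 bp EnPGC-1 interval chr2:29790436-29792451 lay over Coq4, a gene of ubiquinone synthesis.

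Slc27a2 encodes FATP2, a transporter and very long-chain acyl-CoA synthetase best known from liver and kidney, at chr2:126553024-126588243. The DMSO list had 2 intervals over 1243 bases (1.65%) and the EnPGC-1 list 15 over 8005 (10.6%), a ratio of 6.44 that was higher than at 85.0% of gene regions with a DMSO interval. Both DMSO intervals lay inside the gene and met EnPGC-1 intervals. The downstream flank had 0 DMSO bases and 3530 EnPGC-1 bases, 5 of the EnPGC-1 intervals touching another protein-coding gene, the histidine decarboxylase gene Hdc. Neither list had an interval within 1 kb of the start, the nearest lying 5874 (EnPGC-1) and 19363 bases (DMSO) away.

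Cd36, at chr5:17781690-17888959, was among the least covered. Its region held 3 DMSO intervals over 1294 bases (0.879%) and 5 EnPGC-1 intervals over 2603 bases (1.77%). The ratio of 2.01 exceeded that of 9.995% of gene regions, although the bases within 1 Mb on each side had a ratio of 4.26. The intervals inside the gene were largely at the same places in both lists. The DMSO interval chr5:17786233-17786828 lay within the EnPGC-1 interval chr5:17786012-17787044, which scored 6.45, and chr5:17806939-17807331 lay within chr5:17806919-17807385. The start in the promoter table, base 17835896, was 28565 bases from the nearest DMSO interval and 22114 from the nearest EnPGC-1 interval. On this minus-strand gene that start lies inside the annotated body, which reaches upstream to base 17888959. The upstream end of the gene was not among the starts examined.

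Fabp5, a gene of 4026 bases at chr3:10012585-10016610, had 1 interval in its body in each list, at the same place. The DMSO interval chr3:10012787-10013620 was 834 bp wide, the widest DMSO interval at any of the 10 genes, and lay wholly inside the EnPGC-1 interval chr3:10012038-10013679 of 1642 bp. The body was covered to 20.7% by DMSO intervals, the highest of the 10, and to 27.2% by EnPGC-1 intervals, a ratio of 1.313. The region was covered to 1.89% and 6.26%, the other 3 EnPGC-1 intervals, of 293 to 461 bp, lying in the flanks where the DMSO list had 0. None of these intervals touched another protein-coding gene. Within 1 Mb on each side the ratio was 5.03, against 3.30 in the region.

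**Figure D2:**
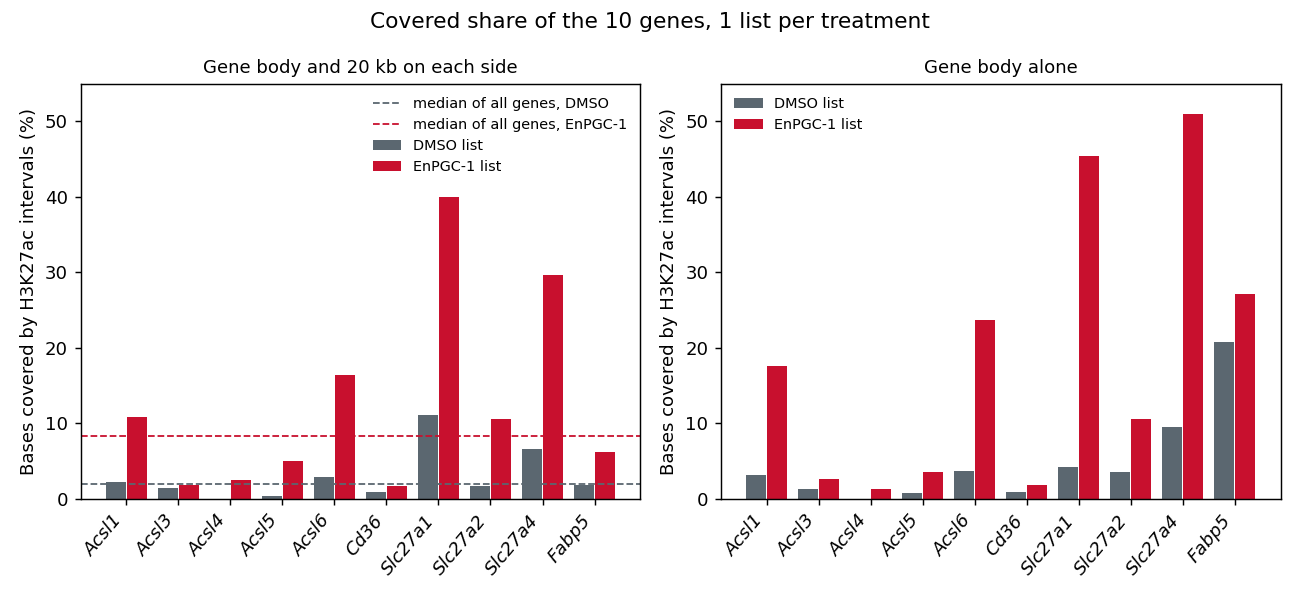
Percent of bases covered by intervals of the DMSO list (grey) and the EnPGC-1 list (red) for the gene body with 20 kb on each side (left; dashed lines are the medians of all protein-coding genes, 1.99% and 8.37%) and for the gene body alone (right). There is 1 list per treatment and no error bar; Slc27a1 and Slc27a4 stand highest in the EnPGC-1 list, and Fabp5 has the highest body share in the DMSO list.

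The 5 long-chain acyl-CoA synthetase genes differed as widely among themselves. Acsl1, at chr8:46471037-46536051, encodes the isoform that leads in fat, liver and heart. It held 5 DMSO intervals over 2392 bases (2.28%) and 17 EnPGC-1 intervals over 11420 bases (10.9%), a ratio of 4.77. All 17 EnPGC-1 intervals lay in the gene body, which was covered to 17.6% against 3.23% in the DMSO list, and the 40 kb of flanks held 0 EnPGC-1 bases and 294 DMSO bases. Overlap with an EnPGC-1 interval was found for 2 of the 5 DMSO intervals, among them chr8:46488165-46488626, which lay inside the widest EnPGC-1 interval of the gene, chr8:46487996-46489387. Neither of the 2 starts in the table had an interval within 1 kb. The nearest EnPGC-1 intervals began 2057 bases after the first start and ended 1579 bases before the second.

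Acsl6, at chr11:54303805-54364756, encodes an isoform known from brain. EnPGC-1 intervals stood along most of its length. There were 6 DMSO intervals over 2881 bases (2.85%) and 27 EnPGC-1 intervals over 16591 bases (16.4%), of which 23 lay in the body. The ratio of 5.76 was higher than at 80.4% of gene regions, and within 1 Mb on each side it was 3.72. Overlap with an EnPGC-1 interval was found for 5 of the 6 DMSO intervals, and the other was 98 bases from one. The starts were covered in the EnPGC-1 list alone. The interval chr11:54303919-54304492 covered the second start and began 95 bases after the first, and chr11:54314768-54315600, with a score of 5.04, covered the third. The nearest DMSO interval was 5392 bases from any of them.

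Acsl5, at chr19:55251861-55296628, encodes an isoform found on the outer mitochondrial membrane and the endoplasmic reticulum. Its ratio of 11.6 was the highest of the 9 that could be formed and exceeded that of 96.8% of gene regions, but it rested on a single DMSO interval of 370 bp. That interval, chr19:55253961-55254330, lay 592 bases after the start, had a score of 1.58, and was in the DMSO list alone. Of the DMSO list 80.7% scored higher, and at or above the median score the region held 0 DMSO intervals. The EnPGC-1 list had 9 intervals over 4304 bases (5.08% against 0.436%), the nearest to the start 4188 bases away. Of these 9, 4 touched another protein-coding gene. Acsl5 was the 1 member marked at the listed start in the DMSO list and not in the EnPGC-1 list, which was so for 3.09% of genes. That start, base 55253369, lies inside the annotated body, which begins upstream at base 55251861. The upstream end of the gene was not among the starts examined.

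Acsl4, at chrX:142317993-142390802, encodes the isoform that prefers arachidonic acid and is known for its part in ferroptosis. The DMSO list had 0 intervals in its 113 kb region. The EnPGC-1 list had 4 over 2814 bases (2.49%), a share higher than at 23.4% of gene regions. The interval at the start, chrX:142389861-142390861, covered the start and the whole promoter printed above, with a score of 1.97. Of the EnPGC-1 list 87.4% scored higher, and this interval was absent at or above the median score. The other 3 EnPGC-1 intervals lay in the flank beyond the end of the gene, the widest, chrX:142305087-142306275, over the potassium channel gene Kcne1l. The DMSO interval nearest to the start was 58534 bases away.

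Acsl3, at chr1:78657825-78707743, encodes an isoform of the endoplasmic reticulum and lipid droplets, and differed least between the lists. Each list had 4 intervals, over 1248 bases for DMSO (1.39%) and 1615 for EnPGC-1 (1.796%). The ratio of 1.29 exceeded that of 3.52% of gene regions, while within 1 Mb on each side it was 3.71. Only 1 pair overlapped, chr1:78703564-78703883 with chr1:78703610-78703945, late in the gene. The EnPGC-1 list alone had an interval at the start, chr1:78657839-78658507, of 669 bp. That start is also the first base of the protein-coding gene Utp14b, so the interval cannot be assigned to 1 of them. When bases inside other protein-coding genes were left out, the difference at Acsl3 turned from 0.41 to -0.38 percentage points.

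**Figure D3:**
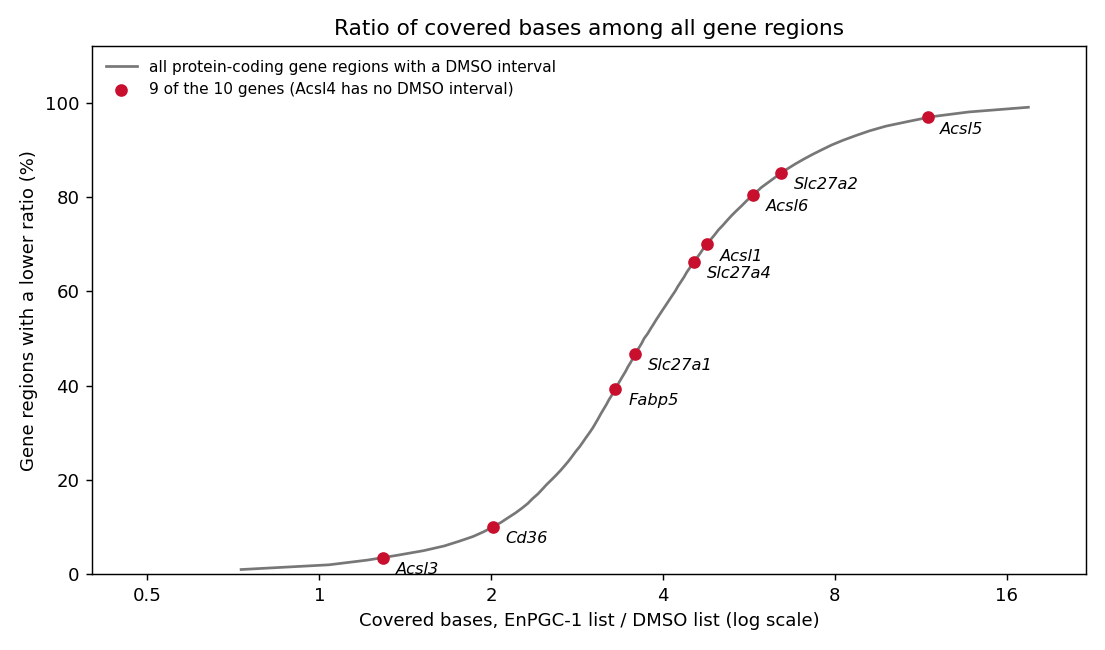
Ratio of covered bases (EnPGC-1 list over DMSO list, log axis) against the percent of gene regions with a lower ratio. The grey line shows the 17548 protein-coding gene regions with a DMSO interval and the red points 9 of the 10 genes, which run from Acsl3 at 1.29 to Acsl5 at 11.6; Acsl4 has no ratio because its DMSO value is 0.

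Starts were marked in the EnPGC-1 list at 3 of 5 synthetase and 2 of 4 uptake genes. Of the 9 genes with an annotated start, 5 had an EnPGC-1 interval within 1 kb of at least 1 start (Acsl3, Acsl4, Acsl6, Slc27a1 and Slc27a4) and 2 a DMSO interval (Acsl5 and Slc27a1). The shares over all 17274 genes with a start were 67.3% and 33.5%. In the EnPGC-1 list alone were 4 of the 9 (Acsl3, Acsl4, Acsl6 and Slc27a4), beside 36.8% of all genes. In neither list were 3 of the 9 (Acsl1, Cd36 and Slc27a2), beside 29.6%. For Cd36 and Acsl5 only a start more than 1 kb inside the gene body was examined. These counts are near those of all genes or below them. With equal numbers of highest-scoring intervals, 3 of the 9 had an EnPGC-1 start interval (Acsl6, Slc27a1 and Slc27a4). The share of all genes then fell to 30.1%, below the 33.5% of the DMSO list, so over all genes the excess at starts was not present under that setting. Of the 9 genes, 2 still had a DMSO start interval.

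The lists shared many of the places that DMSO-treated cells had. Among 47 DMSO intervals, 32 met an EnPGC-1 interval (68.1%, exact Clopper-Pearson 95% interval 52.9 to 80.9), beside 73.7% of the whole DMSO list. In turn, 30 of 131 EnPGC-1 intervals met a DMSO interval (22.9%, 16.02 to 31.1), beside 23.1% of the whole list. These intervals cover counting error only. Of the 32, 15 lay wholly within an EnPGC-1 interval. In bases, 55.5% of the DMSO and 12.2% of the EnPGC-1 width was shared, beside 62.0% and 15.5% over the whole lists. The 15 DMSO intervals without overlap were at most 17260 bases from an EnPGC-1 interval, with a median of 1586, and 5 were within 1 kb. Slc27a1 and Slc27a4 held 19 of the 32 shared DMSO intervals, but also the most DMSO intervals of any region. At Slc27a1 11 of 15 and at Slc27a4 8 of 10 were shared, whereas at Acsl3 3 of 4 were unshared.

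Wide intervals with several summits were found in the EnPGC-1 list. EnPGC-1 intervals were 281 to 3635 bp wide with a median of 554, and DMSO intervals 292 to 834 bp with a median of 383. Of the EnPGC-1 intervals, 28 (21.4%) were at least 1000 bp wide, beside 14.2% of the whole list, and 35 (26.7%) had more than 1 summit, beside 20.7%. Of the DMSO intervals 0 were that wide, beside 4.39% of the whole list. Only 1 (2.13%), at Fabp5, had more than 1 summit, beside 3.42% of the whole list. Scores were far below the highest of the whole lists, 541 for EnPGC-1 and 179 for DMSO. With EnPGC-1 they ran from 1.31 to 7.68 and with DMSO from 1.32 to 4.52, with medians of 3.69 and 2.16 that were close to those of the whole lists, 3.64 and 2.16. The highest DMSO score, 4.52, was reached at Slc27a1 (chr8:71550810-71551107) and Slc27a4 (chr2:29809988-29810286), and 2.60% of the DMSO list scored higher.

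**Figure D4:**
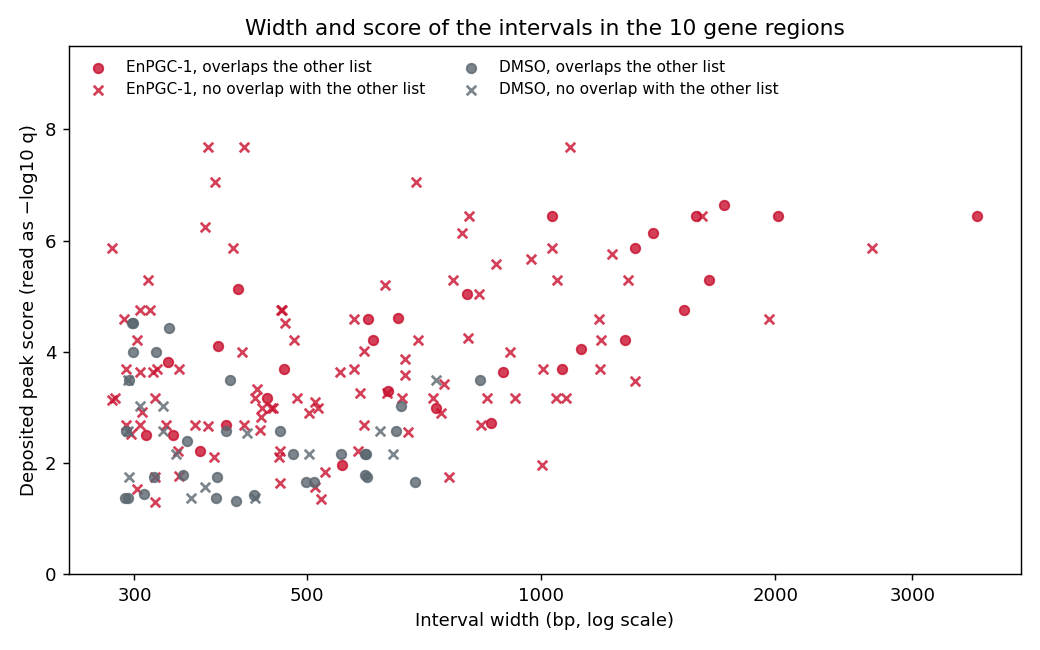
Width (bp, log axis) against deposited peak score (read as −log10 q) for the 131 EnPGC-1 intervals (red) and 47 DMSO intervals (grey) in the 10 gene regions; circles overlap an interval of the other list and crosses do not. The DMSO points end at 834 bp and a score of 4.52, and the widest EnPGC-1 points, up to 3635 bp, lie at Slc27a4 and Slc27a1. Scores of different lists are not on a common scale.

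Other genes of the same families and of fatty acid handling were listed in the same way. All 34 genes listed for this matched, and 34 were covered over more bases with EnPGC-1, beside 93.0% of all gene regions. A DMSO interval was present in 28 of 34 regions, beside 81.1% of all, and 6 of 34 were in the EnPGC-1 list alone, beside 13.4%, among them that of the medium-chain synthetase gene Acsm1. At least 4 times as many bases were covered in 10 of the 28, beside 43.9% of all such regions. Some of these genes are neighbours and share intervals, such as Acsbg2 with Acsbg3. The median covered shares were 1.98% and 5.36%, beside 1.77% and 8.45% for the 10 genes above and 1.99% and 8.37% for all genes. The largest differences were at Acsbg3 (10.7% and 47.2% in the DMSO and EnPGC-1 lists), Acsf3, which encodes a malonyl-CoA synthetase of mitochondria (12.6% and 48.8%), Acsbg2 (8.80% and 35.3%) and Fabp3, the binding protein gene of heart and muscle (6.07% and 27.01%). The smallest were at Acsm3 (2.88% and 2.92%), Acss3 (0.499% and 0.990%) and Acsm1 (0% and 1.05%). At the start, 15 of 23 had an EnPGC-1 interval and 9 of 23 a DMSO interval, beside 67.3% and 33.5% of all genes.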

How the data were processed

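Per the submitters' processing notes, the build was mm10 and the tools were ChIPseeker 11.16.1, MACS2 2.2.2.20160309, Picard 0.118, Bowtie 1.1.2 and Trimmomatic 0.38. For parameters, control and the handling of replicates the entry is: not given in the sources used here. Nor is it said whether replicates came from separate mice. The authors deposited 1 peak list per treatment with a score per peak, read here as −log10 of a q-value because the lowest scores were 1.31. More peaks can be called from deeper or better enriched libraries, and this moves every covered length.

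Entries that repeat an interval with several summits were combined (84538 to 81522 for DMSO, 329623 to 253423 for EnPGC-1), keeping the highest score. Covered bases were counted in gene bodies with 20 kb on each side, for genes of a RefSeq table of GRCm38.p6, and intervals were sought within 1 kb of starts in a RefSeq promoter table, which gives strand. Where a gene had several starts, any counted. Exons and introns were not analysed. Overlap needed 1 bp. Python 3.11.15, pandas 2.3.3, numpy 2.4.6, scipy 1.17.1 and matplotlib 3.10.9 were used, and counting was tested on simulated data.

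The genes, lists and settings were chosen with earlier results of these data known. Named were the 10 genes, their highest-scoring, widest or start intervals where they carry a result, and of 34 related genes the 4 largest and 3 smallest differences. Other intervals, and neighbouring genes, were named after their values were seen. Alternatives were stricter scores, equal numbers of intervals, joining, a width limit, other flanks, windows and overlap rules, leaving out neighbouring genes or chromosome X, and counting entries. The ratio within 1 Mb and the place of a score in its list were added after seeing the data. The 1 Mb ratios not quoted above were 3.76 at Slc27a1 (region 3.58), 4.10 at Slc27a4 (4.53) and 3.52 at Acsl1 (4.77). They were 4.02 at Acsl5 (11.6), 3.34 at Slc27a2 (6.44) and 3.88 at Acsl4, which has no region ratio.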

Additional observations from a re-analysis of the deposited data

How the results depend on the processing

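No paired analysis was possible because each treatment has 1 list and no value per replicate; for the same reason no replicate could be left out. A count or ratio is called moved here when it differs by more than 1.5 times, and a share when it leaves its counting interval. With equal numbers of highest-scoring intervals only EnPGC-1 intervals were taken out, those scoring under 4.21 and part of those at that score. Ties at that score were kept widest first, which favours the EnPGC-1 list in covered bases. The ratio of covered bases over the 10 regions then moved to 2.12, beside 1.65 for the whole lists. The EnPGC-1 intervals then numbered 47, the regions with at least 4 times the covered bases 0 (6.03% of all), the genes with an EnPGC-1 start interval 3 of 9 (30.1% of all genes, down from 67.3% and below the 33.5% of the DMSO list), and 34.04% of DMSO intervals overlapped the other list. More bases were covered in the EnPGC-1 list at 8 regions (65.9% of all), Acsl4 had 0 in both lists and Acsl3 reversed to -1.39 percentage points. Acsl3 also reversed, to -0.38, without bases of other protein-coding genes. At or above each list's median score there were 29 DMSO and 70 EnPGC-1 intervals, and overlap was 37.9% and 15.7%. There 1 gene had a DMSO start interval (22.03% of all genes), and the ratio was 4.43, beside 3.66 for the whole lists. Overlap of the whole lists was not measured under either score setting, so 34.04%, 37.9% and 15.7% have no share of all intervals beside them. Without intervals under 500 bp the ratio was 7.78, from 14 DMSO and 73 EnPGC-1 intervals, with no ratio of the whole lists beside it. Interval numbers followed the flank: 23 and 76 in gene bodies, 23 and 87 with 5 kb, and 82 and 256 with 50 kb on each side. A DMSO start interval was found at 1 gene within 500 bp and at 4 within 2500 bp and 5 kb. Of 60 differences for single genes under 6 alternatives, 57 were positive, 29 stayed within 1.5 times, 29 moved beyond it and 2 reversed. The cause of these shifts was not tested beyond what each setting removes. Unknown depth limits every comparison between the lists.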

Other observations

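Gene bodies and their flanks had unlike ratios at several of the 10 genes. The ratio of covered bases, EnPGC-1 over DMSO, in the body against the flanks was 10.9 against 2.59 at Slc27a1, 5.31 against 4.02 at Slc27a4 and 6.30 against 3.67 at Acsl6. It was 2.01 against 2.02 at Cd36 and 2.01 against 0.50 at Acsl3. At Acsl1 the flanks had 294 DMSO and 0 EnPGC-1 bases, and the body 2098 and 11420. At Acsl5, Slc27a2 and Fabp5 the flanks had 0 DMSO bases and 2717, 4257 and 1660 EnPGC-1 bases. The median covered share of the gene body over all protein-coding genes was 1.28% (DMSO) and 9.40% (EnPGC-1), and 7 and 6 of the 10 genes lay above it. With 20 kb on each side the medians were 1.99% and 8.37%, and 4 and 5 of the 10 lay above them. Ratios of body and flanks were not set beside those of all genes, so the difference cannot be called particular to these 10.

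Scores took few distinct values. The 47 DMSO intervals carried 17 different scores and the 131 EnPGC-1 intervals 60. The most frequent were 2.16, carried by 7 DMSO intervals and by 13.7% of the whole DMSO list, and 3.18, carried by 11 EnPGC-1 intervals and by 7.94% of the whole EnPGC-1 list. Ranking by score within these regions is therefore coarse.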
